A study of Mus musculus with 18 samples.

Results

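The genes described here are 10 mouse genes that build, coat, feed or break down neutral lipid: Gpam, Agpat2, Lpin1, Lpin2, Dgat1, Dgat2, Plin2, Pnpla2, Fabp5 and Cd36. They were chosen by gene symbol, and all 10 were measured, out of 19938 genes with a single symbol on the array. Fabp5 was represented by 2 array features, of which the brighter was used, and each of the other 9 genes by 1 feature. Total RNA from alveolar type II cells isolated from mice of 7-8 weeks was hybridized to 18 arrays, 3 for each of 6 groups, at 0, 2 and 24 h of exposure to hyperoxia. The control groups came from littermates with floxed Cebpa alleles that lacked the rtTA or the Cre transgene. The Cebpa-deleted groups carried floxed Cebpa alleles with an rtTA driven by the CCSP promoter, and the series design places the deletion in Clara cells and type II cells, while the genotype label of these groups names no Cre transgene. The floxed alleles are therefore common to all 6 groups. The times are those of the sample titles, and every sample is also described as in air, so that the exposure itself rests on the design text of the series. The labels do not say that the 3 arrays of a group came from separate mice, so p-values measure the spread between arrays, which may in part be technical.

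Glycerolipids are assembled in the endoplasmic reticulum by adding fatty acids to glycerol 3-phosphate, removing the phosphate, and then adding either a last fatty acid to make triglyceride or a phosphocholine head to make phosphatidylcholine. The type II cell uses the second branch to make surfactant, and it takes up and re-uses fatty acids from blood, from neighbouring lipofibroblasts and from the airspace. C/EBPα, the transcription factor encoded by Cebpa, is best known from fat and liver, where it acts with PPARγ in lipid storage.

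Promoter windows of the RefSeq annotation of build GRCm38.p6 were found for 7 of the 10 genes, 10 windows in all, each from 250 bases before to 50 bases after an annotated start. Dgat1, Dgat2 and Fabp5 had none in that table. Both strands were searched for 4 motifs: the C/EBP site TTGCNNAA, the PPAR site (AGGTCA repeated after 1 base), the SREBP site TCACNCCAC and the E-box CACGTG. The C/EBP letters are in 10.8% of the 32851 windows of the table, the PPAR letters in 0.0396%, the SREBP letters in 1.24% and the E-box in 7.15%. Among the 10 windows, 2 held the C/EBP letters, 2 the E-box and 0 the PPAR or SREBP letters. The motifs do not overlap each other in these windows. Of these windows, 4 are shown, each 300 bases, read 5′ to 3′ along the gene, with motif letters in capitals. The Gpam window (chr19:55127189-55127488, minus strand) and the third Lpin2 window (chr17:71204404-71204703, plus strand) are shown as those with C/EBP letters, at bases 259 to 266 and 181 to 188 of the window. The Plin2 window (chr4:86670010-86670309, minus strand), with an E-box at bases 247 to 252, and the Lpin1 window (chr12:16610917-16611216, minus strand), with no match to the 4 motifs, are shown because these genes had the largest genotype difference in their change from 2 to 24 h. A match describes letters in a window and is not evidence of binding.
Gpam: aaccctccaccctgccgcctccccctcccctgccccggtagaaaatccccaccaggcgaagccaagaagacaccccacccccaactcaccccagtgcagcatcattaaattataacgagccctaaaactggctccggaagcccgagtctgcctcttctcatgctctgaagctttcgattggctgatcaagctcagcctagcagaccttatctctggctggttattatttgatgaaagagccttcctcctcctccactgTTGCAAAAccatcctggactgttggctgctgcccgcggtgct
Lpin2: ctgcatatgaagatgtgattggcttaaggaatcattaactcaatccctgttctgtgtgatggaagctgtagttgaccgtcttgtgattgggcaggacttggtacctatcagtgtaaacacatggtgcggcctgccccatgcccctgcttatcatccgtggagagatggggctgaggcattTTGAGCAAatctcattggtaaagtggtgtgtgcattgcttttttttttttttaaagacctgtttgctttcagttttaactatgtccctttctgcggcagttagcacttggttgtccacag
Plin2: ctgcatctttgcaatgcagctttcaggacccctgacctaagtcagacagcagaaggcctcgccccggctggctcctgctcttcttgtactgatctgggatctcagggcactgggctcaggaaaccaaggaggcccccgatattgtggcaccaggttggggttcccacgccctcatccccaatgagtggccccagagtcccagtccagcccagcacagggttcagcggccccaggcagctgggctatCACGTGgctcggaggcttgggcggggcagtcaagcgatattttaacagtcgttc
Lpin1: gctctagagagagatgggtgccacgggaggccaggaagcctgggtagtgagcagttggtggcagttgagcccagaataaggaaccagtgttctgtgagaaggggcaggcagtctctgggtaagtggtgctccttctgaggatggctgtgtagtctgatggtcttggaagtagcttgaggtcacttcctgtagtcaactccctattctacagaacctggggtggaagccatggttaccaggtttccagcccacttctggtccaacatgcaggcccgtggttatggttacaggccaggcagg

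The targeted gene was lower in the Cebpa-deleted arrays by -0.43 (log2) at 0 h, by -1.10 at 2 h and by -1.83 at 24 h, with limma adjusted p = 0.429, 0.00461 and 8.19e-06. Arrays of a group correlated at 0.978 to 0.995. The 6 arrays at 0 h spanned a wider range of values than the other 12, with an interquartile range over all genes of 2.89 to 3.06 against 1.82 to 2.55, so that time and array range cannot be told apart for changes from 0 h. At 24 h the interquartile range was 2.44 to 2.52 in the control arrays and 1.82 to 2.13 in the Cebpa-deleted arrays, so that genotype and array range cannot be told apart there either. The mean over 15 endothelial markers was higher in the Cebpa-deleted arrays at all 3 times (8.14 to 8.41 against 9.12 to 9.41 at 0 h, 7.96 to 8.27 against 8.60 to 9.55 at 2 h and 8.08 to 8.73 against 9.05 to 9.17 at 24 h). Sftpc, the surfactant protein that defines type II cells, was near the top of the scale in every group, and Scgb1a1, the club cell secretory protein, was also bright (the club cell list averaged 11.04 to 11.94). In bulk RNA of this kind, fewer cells of a type and less RNA per cell cannot be told apart.

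The 10 genes covered a wide range of values, on the authors' log2 RMA scale, where 1 unit is a 2-fold difference. Cd36, the fatty acid translocase at the cell surface, was the brightest, at 11.69 to 13.38 over the 18 arrays. Dgat2, which makes triglyceride from diacylglycerol, was the dimmest at 7.06 to 7.90. Array values of different genes depend on their probes, so this order does not compare amounts of RNA.

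**Figure D1:**
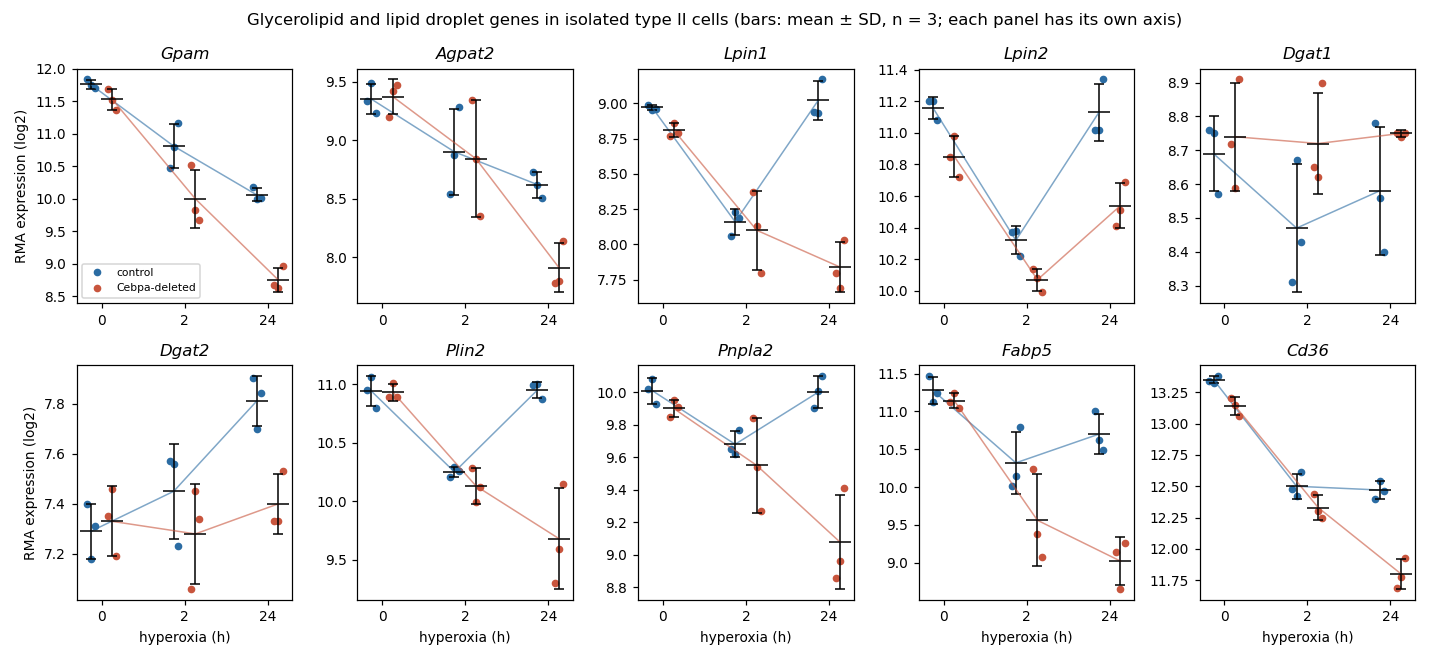
RMA expression (log2) of the 10 genes, 1 panel per gene, at 0, 2 and 24 h (categories, not a time scale) in control (blue) and Cebpa-deleted (red) cells. Points are arrays and black bars are the mean ± SD of 3 arrays. At 24 h the red points lie below the blue points in 9 panels, and in the Dgat1 panel they overlap.

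Before exposure the genotypes differed little in these genes. None of the 10 was called at 0 h (adjusted p below 0.05 in limma, Benjamini-Hochberg over 19938 genes, the rule for every call here), where 0.858% of all genes were called, and 2 of the 10, Lpin2 and Cd36, had an unadjusted p below 0.05, as had 9.25% of all genes. The median difference of the 10 genes was -0.12, beside -0.00 for all genes. Lpin2, a phosphatidate phosphatase, had the lowest unadjusted p, with values of 11.20, 11.20 and 11.08 in control cells and 10.85, 10.98 and 10.72 in Cebpa-deleted cells. Its difference was -0.31 (95% interval -0.53 to -0.09), with limma adjusted p = 0.251. Gpam, Lpin1, Lpin2 and Cd36 had all 3 Cebpa-deleted arrays below all 3 control arrays, a pattern that 8.77% of all genes showed.

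At 2 h, Gpam, the mitochondrial glycerol-3-phosphate acyltransferase that starts the pathway, was lower in the Cebpa-deleted cells. Its values were 10.48, 10.80 and 11.16 in control cells and 10.52, 9.83 and 9.67 in Cebpa-deleted replicates 2, 3 and 4. The ranges overlap, since Cebpa-deleted replicate 2 lay above the lowest control array. The difference was -0.81 (SE 0.18), or 57.1% of the control level, with limma adjusted p = 0.0309. It was the 1 call among the 10 genes, where 1.4% of all genes were called and 0.206% were called lower. The call rested on single arrays: it was lost without control replicate 2 (-0.82, limma adjusted p = 0.0776) or 3 (-0.64, 0.196), and without Cebpa-deleted replicate 3 (-0.72, 0.198) or 4 (-0.64, 0.106), within a range of -1.07 to -0.64.

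Fabp5, a cytosolic fatty acid carrier, had the other large difference at 2 h. Control arrays read 10.02, 10.15 and 10.79 and Cebpa-deleted replicates 2, 3 and 4 read 10.24, 9.38 and 9.07. The last 2 of these lay below every control array, and the difference was -0.76 (95% interval -1.27 to -0.25, limma adjusted p = 0.169). Without Cebpa-deleted replicate 2 it was -1.09, with limma adjusted p = 0.00451. Over the 6 fits that left out 1 array it ran from -1.09 to -0.51 (limma adjusted p up to 0.519), and 5 of these gave no call. Lpin1, Agpat2, Plin2, Pnpla2, Dgat2, Cd36 and Lpin2 differed by -0.25 to -0.06 at 2 h and were not called. Dgat1, the other triglyceride-forming acyltransferase, was the 1 gene with a higher mean in Cebpa-deleted cells at 2 h, by 0.25 (95% interval 0.00 to 0.50, limma adjusted p = 0.449). The median of the 10 differences was -0.15, beside -0.02 for all genes.

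At 24 h, 9 of the 10 genes were lower in the Cebpa-deleted cells and Dgat1 was not called. The lower genes cover the path from fatty acid uptake (Cd36, Fabp5) through the acyltransferases (Gpam, Agpat2) and the phosphatidate phosphatases (Lpin1, Lpin2) to triglyceride (Dgat2), its droplet coat (Plin2) and its lipase (Pnpla2). The differences of these 9 ran from -1.69 for Fabp5 to -0.41 for Dgat2. The background was high: 50.7% of all genes were called at 24 h, 26.4% lower and 24.3% higher. All 3 Cebpa-deleted arrays lay below all 3 control arrays for the same 9 genes, as they did for 30.4% of all genes. The median of the 10 differences was -0.82, beside 0.05 for all genes and -0.67 for 14 type II cell markers, of which 13 were called lower.

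**Figure D2:**
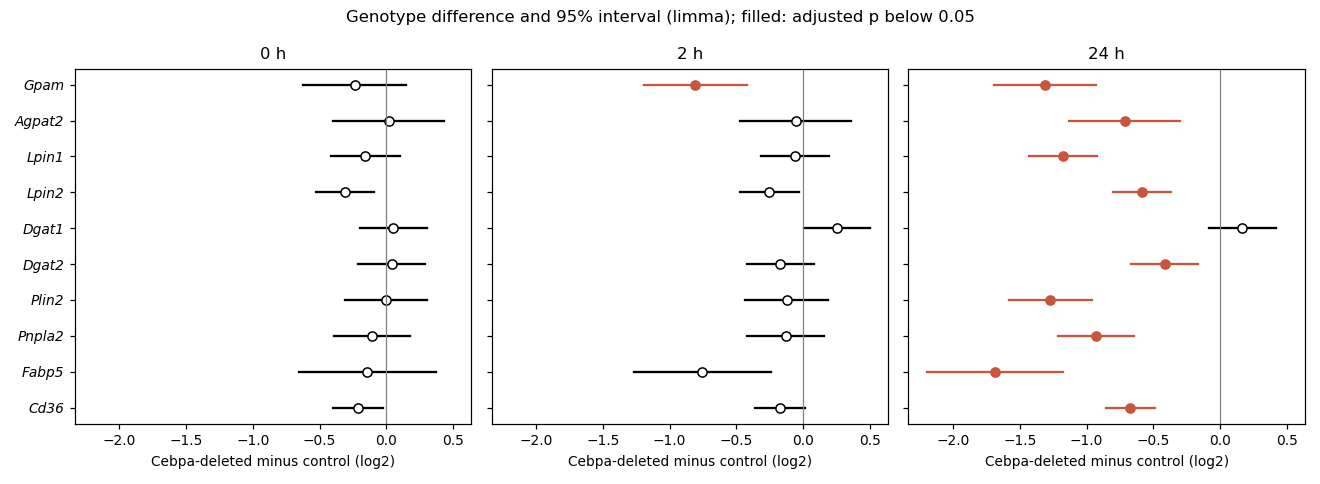
Difference between Cebpa-deleted and control cells (log2, horizontal axis) for each gene at 0, 2 and 24 h, with its 95% interval from limma. Filled red points are called at an adjusted p below 0.05. There are 0 filled points at 0 h, 1 at 2 h (Gpam, -0.81) and 9 at 24 h, and Dgat1 lies to the right of 0 at each time.

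Of the genes for uptake, Fabp5 read 11.00, 10.62 and 10.49 in control cells at 24 h and 9.14, 8.65 and 9.26 in Cebpa-deleted replicates 1, 2 and 4. The groups are separated by more than the spread of either, and the Cebpa-deleted mean was 31.1% of the control mean (difference -1.69, SE 0.24, limma adjusted p = 0.000145). The second Fabp5 feature gave 10.68 ± 0.25 in control and 8.93 ± 0.30 in Cebpa-deleted cells (SD, n = 3), close to the first, so the values do not tell the features apart. Cd36 read 12.40, 12.54 and 12.46 in control cells and 11.69, 11.78 and 11.93 in Cebpa-deleted cells, with no overlap. Its difference of -0.67 (SE 0.09, limma adjusted p = 7.46e-05) left 62.8% of the control level. Cd36 is also a gene of capillary endothelium and macrophages, and at 24 h 14 of 15 endothelial markers were higher in the Cebpa-deleted arrays, with Cdh5 up by 0.89, while of 12 macrophage markers 3 were higher and 2 lower. The part of those cells in the Cd36 value was not tested.

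Of the synthetic enzymes, Gpam had the largest genotype difference at 24 h. It read 10.18, 9.99 and 10.01 in control cells against 8.67, 8.62 and 8.96 in Cebpa-deleted cells, a gap of over 1 unit between the nearest arrays. The Cebpa-deleted mean was 40.3% of the control mean (difference -1.31, SE 0.18, limma adjusted p = 0.000115). Agpat2, which adds the next fatty acid to make phosphatidate, read 8.73, 8.62 and 8.51 in control cells and 7.78, 7.80 and 8.14 in Cebpa-deleted cells. The groups do not overlap, and the difference was -0.71 (SE 0.20, limma adjusted p = 0.0078).

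The lipins remove the phosphate from phosphatidate, and lipin 1 also acts as a transcriptional coactivator. Lpin1 read 8.94, 8.93 and 9.17 in control cells at 24 h and 7.80, 7.69 and 8.03 in Cebpa-deleted cells. This was the smallest adjusted p of the 10 genes, 1.07e-05 in limma, with a difference of -1.18 (SE 0.12) and a Cebpa-deleted mean at 44.3% of the control mean. Lpin2 read 11.02, 11.02 and 11.34 in control cells and 10.41, 10.51 and 10.69 in Cebpa-deleted cells. It too was separated between the genotypes, by -0.59 (SE 0.10, limma adjusted p = 0.00056).

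Of the enzymes of the last step to triglyceride, Dgat2 was called at 24 h and Dgat1 was not, and the difference between their responses was not tested. Dgat2 read 7.90, 7.70 and 7.84 in control cells and 7.33, 7.33 and 7.53 in Cebpa-deleted cells, a difference of -0.41 (SE 0.12, limma adjusted p = 0.0095). Dgat1 read 8.78, 8.56 and 8.40 in control cells and 8.75, 8.74 and 8.75 in Cebpa-deleted cells. The Cebpa-deleted arrays were nearly equal and lay within the control range, with a difference of 0.17 (95% interval -0.08 to 0.42, limma adjusted p = 0.247). Over the 18 arrays Dgat1 stayed between 8.31 and 8.91, the narrowest span of the 10 genes.

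Plin2 and Pnpla2 act at the droplet, where perilipin 2 coats the surface and Pnpla2 encodes the lipase that takes the first fatty acid from triglyceride. Plin2 read 10.99, 11.00 and 10.87 in control cells at 24 h and 9.30, 9.59 and 10.15 in Cebpa-deleted replicates 1, 2 and 4. Replicate 4 lay nearest to the controls, and the groups do not overlap. The difference was -1.27 (SE 0.15), a Cebpa-deleted mean at 41.4% of the control mean, with limma adjusted p = 3.25e-05. Pnpla2 read 9.90, 10.01 and 10.10 in control cells and 8.86, 8.96 and 9.41 in Cebpa-deleted cells. The difference of -0.93 (SE 0.14, limma adjusted p = 0.000164) left 52.6% of the control level, and again replicate 4 was the highest Cebpa-deleted array.

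The 9 calls at 24 h held when any 1 of the 6 arrays of that time was left out, but not in every treatment of the array range. A second quantile normalization over the 18 arrays kept 8 of them, with Lpin2 at -0.23 (limma adjusted p = 0.0741), and called Dgat1 higher by 0.51 (limma adjusted p = 0.00819). In that fit 33.6% of all genes were called. With each array's interquartile range added to the limma model, 0 of the 10 genes and 4 of all genes were called, 5 of the 10 (Lpin1, Lpin2, Dgat2, Plin2 and Cd36) and 7.83% of all genes had an unadjusted p below 0.05, the median of the 10 was -0.43, and Agpat2 turned to 0.35 (limma adjusted p = 0.715). In the same arrays the type II cell list averaged 12.15 to 12.24 in control and 11.34 to 11.72 in Cebpa-deleted cells, with 13 of 14 markers called lower, while 8 of 12 fibroblast and 8 of 11 lymphocyte markers were higher. The part of the array range and of other cells in the difference was not tested.

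**Figure D3:**
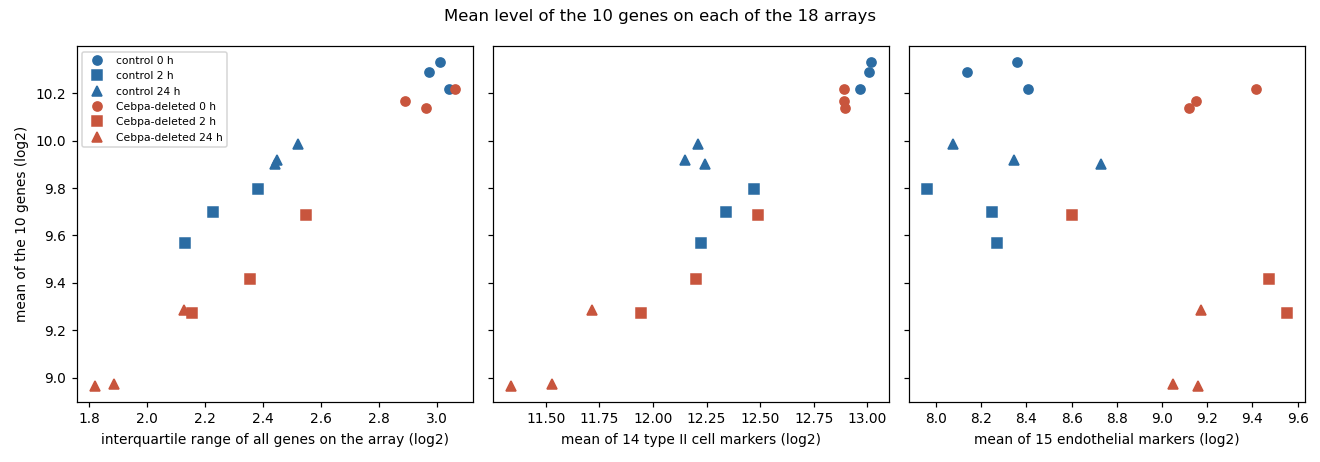
Mean of the 10 genes on each of the 18 arrays (log2, vertical axis) against the interquartile range of the array (left), the mean of 14 type II cell markers (middle) and the mean of 15 endothelial markers (right), all log2. Colours give genotype and symbols give time. The Cebpa-deleted arrays at 24 h hold the 2 lowest values of the 10 genes and of the interquartile range.

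From 2 to 24 h, Lpin1, Lpin2 and Plin2 rose in control cells and Gpam fell, while array interquartile ranges went from 2.13 to 2.38 at 2 h to 2.44 to 2.52 at 24 h in control cells and from 2.16 to 2.55 to 1.82 to 2.13 in Cebpa-deleted cells. In control cells, Lpin1 rose by 0.85 (limma adjusted p = 0.000161), Lpin2 by 0.80 (6.44e-05) and Plin2 by 0.70 (limma adjusted p = 0.00427), and Gpam fell by 0.75 (limma adjusted p = 0.0113). These 4 calls stand beside 12.4% of all genes called, 7.97% higher and 4.46% lower. Control Lpin1 went from 8.06, 8.23 and 8.19 at 2 h to the values near 9 given above, with no overlap, and control Plin2 went from 10.21, 10.29 and 10.26 to 10.87 or more. The Gpam call was lost without control replicate 3 at 2 h (-0.58, limma adjusted p = 0.0573). Dgat2 differed by 0.36 (limma adjusted p = 0.0555), Fabp5 by 0.38 (0.315), Pnpla2 by 0.32 (0.124), Agpat2 by -0.28 (0.369), Dgat1 by 0.11 (0.574) and Cd36 by -0.03 (limma adjusted p = 0.838).

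In Cebpa-deleted cells over the same interval, 5 of the 10 genes fell and 1 rose, where 31.4% of all genes were called, 19.6% lower and 11.8% higher. Gpam fell by 1.25, Agpat2 by 0.94, Cd36 by 0.53, Pnpla2 by 0.47 and Plin2 by 0.45, and Lpin2 rose by 0.47 (limma adjusted p from 0.000261 to 0.029). Lpin2 was the gene of the 10 called higher in both genotypes on the deposited scale. The second quantile normalization kept Gpam, Agpat2, Cd36 and Lpin2 and lost Plin2 (-0.16, limma adjusted p = 0.369) and Pnpla2 (-0.19, limma adjusted p = 0.181). In that fit 26.2% of all genes were called. With the array range in the limma model 0 of the 10 were called, Agpat2 was -0.11, Plin2 -0.09 and Pnpla2 turned to 0.0078, and 4 of the 10 and 13.2% of all genes had an unadjusted p below 0.05. Lpin1 read 8.37, 8.13 and 7.80 at 2 h and 7.80, 7.69 and 8.03 at 24 h, overlapping ranges with a difference of -0.26 (limma adjusted p = 0.107). The calls of Plin2 and Pnpla2 were lost without Cebpa-deleted replicate 2 at 2 h (-0.37 and -0.32) and without Cebpa-deleted replicate 1 (-0.26 and -0.36) or 2 (-0.41 and -0.41) at 24 h, with limma adjusted p from 0.0773 to 0.186.

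The test of the difference between these changes called 5 of the 10 genes, each lower in Cebpa-deleted cells, where 30.8% of all genes were called, 16.5% lower and 14.3% higher. Plin2 changed by 1.15 units less (SE 0.21, 95% interval -1.59 to -0.71, limma adjusted p = 0.00381) and Lpin1 by 1.12 less (SE 0.17, interval -1.48 to -0.75, limma adjusted p = 0.0022). For both, control cells rose, while in Cebpa-deleted cells Plin2 fell and Lpin1 was not called. Pnpla2 had a difference of -0.80 (limma adjusted p = 0.0097), Cd36 of -0.50 (0.0112) and Fabp5 of -0.93 (limma adjusted p = 0.0484). The other 5 genes had values of -0.66 to -0.09 and were not called. The median of the 10 was -0.58, beside 0.01 for all genes. For the 14 type II cell markers the median was -0.54, and 11 of them were called lower.

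**Figure D4:**
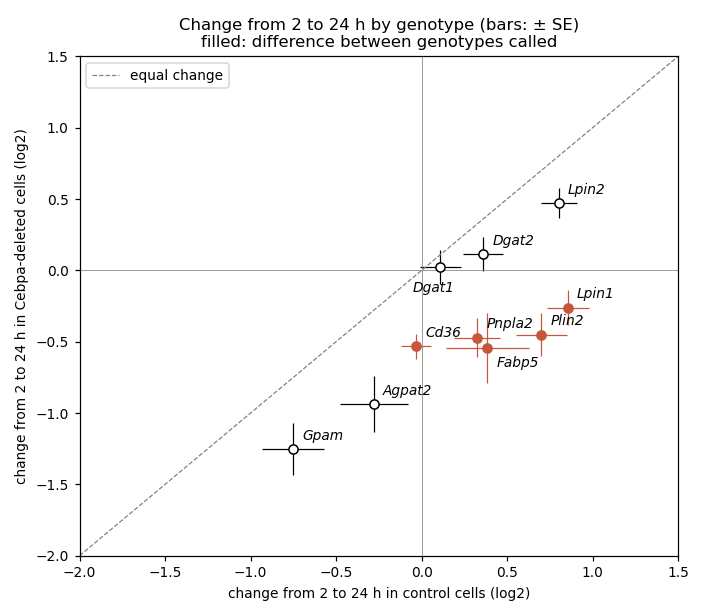
Change from 2 to 24 h (log2) in control cells (horizontal axis) and in Cebpa-deleted cells (vertical axis) for the 10 genes, with bars of 1 SE, and a dashed line where both changes are equal. Filled red points have a called difference between the genotypes. All 10 points lie below the line, with Plin2 (0.70 and -0.45) and Lpin1 (0.85 and -0.26) farthest from it.

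After the second quantile normalization Lpin1 (-0.83) and Plin2 (-0.82) were still called for this difference, and Pnpla2 (-0.43), Cd36 (-0.20) and Fabp5 (-0.62) were not. In that fit 2595 of the 19938 genes were called. With the array range in the limma model 0 of the 10 and 0 of all genes were called, with Lpin1 at -0.47 and Plin2 at -0.59, and 2 of the 10 (Agpat2 and Lpin1) and 8.9% of all genes had an unadjusted p below 0.05. The Fabp5 call was also lost in 9 of the 12 fits that left out 1 array, with values of -1.04 to -0.59: those without control replicate 1 or 2 at 2 h, any control replicate at 24 h, Cebpa-deleted replicate 2 or 3 at 2 h, and Cebpa-deleted replicate 1 or 2 at 24 h. Cebpa-deleted replicate 4 at 24 h had an interquartile range of 2.13, which equals that of the lowest control array at 2 h. The control arrays at 24 h had 2.44 to 2.52, so the range was not matched at that time. With replicate 4 as the only Cebpa-deleted array at 24 h, the median of the 10 differences in change was -0.39, beside -0.58 with all 3 arrays. The median of the 10 genotype differences at 24 h was then -0.57, beside -0.82 with all 3 arrays.

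Changes from 0 h are given as values because the array range changed with time. From 0 to 2 h, 7 of the 10 genes were lower in control cells, where 70.1% of all genes were called and 39.4% lower, and 8 were lower in Cebpa-deleted cells, where 63.1% were called and 36.2% lower. Gpam was lower by -0.95 in control and -1.52 in Cebpa-deleted cells, Fabp5 by -0.96 and -1.57, and Cd36 by -0.85 and -0.81. After the second quantile normalization the Gpam values were -0.40 and -0.97 and those of Fabp5 -0.39 (not called) and -1.06. Of the 10 genes 4 were then lower and 1 higher in control cells, where 41.9% of all genes were called. In Cebpa-deleted cells 5 were lower and 1 higher, where 38.8% were called. With the array range in the model the Gpam values were 0.32 and -0.49 and those of Fabp5 0.92 and -0.05, none called. In that model 0 of the 10 were lower and 1 (Agpat2) higher in control cells, where 4.71% of all genes were called. From 0 to 24 h, 4 of the 10 were lower and 1 (Dgat2, 0.52) higher in control cells, where 59.9% of all genes were called, 34.6% lower and 25.3% higher, and 8 were lower in Cebpa-deleted cells, where 77.6% were called and 41.5% lower. After the second quantile normalization these became 2 lower and 5 higher in control cells, where 40.7% of all genes were called. In Cebpa-deleted cells they became 6 lower and 2 higher, where 61.6% were called. On the deposited scale, by 24 h in control cells, Lpin1 (9.02 ± 0.14), Lpin2 (11.13 ± 0.18), Plin2 (10.95 ± 0.07) and Pnpla2 (9.90 to 10.10) were within 0.05 of their 0 h means, while Gpam was lower by -1.70 (SD, n = 3). That closeness depends on the scale: after the second quantile normalization Lpin1 was 0.42, Lpin2 0.49, Plin2 0.52 and Pnpla2 0.43 above 0 h, all 4 called, and with the array range in the model they were 0.60, 0.11, 0.49 and 0.62 above it.

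The difference between genotypes in the change from 0 to 24 h was called for 6 of the 10 genes, each lower in Cebpa-deleted cells, where 14.3% of all genes were called and 8.88% lower. The values were -1.54 for Fabp5, -1.27 for Plin2, -1.07 for Gpam, -1.02 for Lpin1, -0.82 for Pnpla2 and -0.46 for Cd36 (limma adjusted p from 0.0069 to 0.0279). The count fell to 3 without Cebpa-deleted replicate 1 at 24 h, to 2 without replicate 2 and rose to 8 without replicate 4. The shares of all genes called in these fits are not given here, so these counts have no background beside them. Gpam and Pnpla2 were lost without replicate 1 (-1.03 and -0.71) or 2 (-1.01 and -0.76), and Fabp5 without replicate 2 (-1.36). Cd36 was lost in 7 of the 12 fits without 1 array (-0.47 to -0.40): control replicates 1 and 2 and Cebpa-deleted replicate 2 at 0 h, and control replicates 2 and 3 and Cebpa-deleted replicates 1 and 2 at 24 h. This comparison shares its 24 h arrays with those above.

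The order of the 6 groups differed between the genes. Gpam was highest in control cells at 0 h (11.76 ± 0.07) and lowest in Cebpa-deleted cells at 24 h (8.75 ± 0.19), and control cells at 24 h (10.06 ± 0.10) and Cebpa-deleted cells at 2 h (9.67 to 10.52) were neighbours that did not differ beyond their spread. Lpin1 and Plin2 had their highest means in control cells at 24 h, next to control cells at 0 h, and these neighbours differed by 0.05 and 0.02, less than the SD of either gene at 24 h. Lpin2 was lowest in Cebpa-deleted cells at 2 h (10.07 ± 0.07), below control cells at 2 h (10.32 ± 0.09). The Cebpa-deleted 24 h group was the lowest of the 6 for 7 genes, and Dgat1 had its highest mean there.

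Correlations among the 10 genes were positive apart from those with Dgat1. With every gene centred on the 6 arrays of its time, the 36 pairs without Dgat1 had Pearson r from 0.21 to 0.97 (median 0.83) over 18 arrays, and the 9 pairs with Dgat1 had r from -0.59 to -0.25. The lowest r without Dgat1 was that of Dgat2 with Agpat2. Against the mean of the other 9 genes, r was highest for Pnpla2 (0.957) and Lpin1 (0.946), lower for Dgat2 (0.57) and -0.47 for Dgat1. Of 19928 other genes, 14.6% had r above 0.8 with the mean of the 10, and their median r was -0.14. The 5 genes outside the lists whose pattern was most like the mean of the 10 were Atxn10 (r = 0.982), Cndp2, Scamp1 and Cnppd1 (each 0.981) and Pex3 (0.98). All these values share the genotype split and the array range as a source.

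The wider pathway was read through 52 other genes, of which 48 were measured. At 0 h none of the 48 was called. At 2 h 1 was lower, Abhd5, the coactivator of the Pnpla2 lipase (-0.53, limma adjusted p = 0.0369), and 2 were higher, Agpat4 (0.55) and Hilpda, a droplet protein that inhibits that lipase (0.52). At 24 h 22 were lower, 7 higher and 19 not called, with a median of -0.18, beside 26.4% lower, 24.3% higher and a median of 0.05 over all genes. The second quantile normalization left 17 lower and 4 higher, where 33.6% of all genes were called. With the array range in the limma model 0 of the 48 and 0.0201% of all genes were called. In that model 7 of the 48 and 7.83% of all genes had an unadjusted p below 0.05. On the deposited scale the largest falls were those of Abhd5 (-1.32, limma adjusted p = 6.92e-06), Pcyt2, which activates phosphoethanolamine (-1.12), the acyl-CoA synthetase Acsl5 (-1.02) and the droplet coat protein Plin3 (-0.95). The genes that rose most were G0s2, an inhibitor of the Pnpla2 lipase (0.52, limma adjusted p = 0.00201), Mogat2 (0.45), Plin4 (0.42) and Slc27a2 (0.37). The branch to phosphatidylcholine and related phospholipids had 7 of 8 measured genes lower, the droplet coat and growth list 3 lower and 3 higher of 11, the acyltransferases 3 lower and 1 higher of 10, the lipolysis list 3 lower and 2 higher of 7, and the uptake and activation list 3 lower and 1 higher of 9.

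Between 2 and 24 h, 1 of the 48 pathway genes fell in control cells, the fatty acid carrier Fabp1 (-0.68), and 1 rose, Chka, the choline kinase (0.62). In Cebpa-deleted cells 19 fell and 3 rose, where 19.6% of all genes were lower and 11.8% higher. The difference between genotypes was called for 21, of which 17 were lower and 4 higher in Cebpa-deleted cells, where 16.5% of all genes were lower and 14.3% higher. After the second quantile normalization 3 were lower and 2 higher for this difference, where 2595 of the 19938 genes were called. With the array range in the limma model 0 of the 48 were called in Cebpa-deleted cells and 0 for the difference. An unadjusted p below 0.05 was found for 12 and 3 of them, and for 13.2% and 8.9% of all genes. The largest among those called were Pcyt2 (-0.87), Mgll, the lipase that ends triglyceride breakdown (-0.83), Abhd5 (-0.79) and Plin3 (-0.76) among the lower, and G0s2 (0.67), Plin4 (0.63), Gpat2 (0.47) and Plin1 (0.42) among the higher.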

How the data were processed

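The deposited values are log2 expression values, 1 per transcript feature and array, which the authors obtained by RMA, as stated in the submitters' processing notes. The RMA version, the genome build, any filter and which arrays were normalized together are not given in the sources used here. Of 35557 features, 21789 carried 1 gene symbol in the platform annotation, 1621 several and 12147 none, and 21698 were updated through the Entrez ID against RefSeq. For 999 genes with several features the one with the highest mean over 18 arrays was kept, which left 19938 genes.

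The values were tested as deposited with limma 3.58.1 in R 4.3.3 (lmFit, eBayes), in 1 fit of the 6 groups with contrasts between genotypes at each time, between times within each genotype, and for the difference between those changes. Benjamini-Hochberg adjustment of p-values covered all 19938 genes. In data simulated for the 24 h comparison over 19938 genes, 93% of 100 genes changed 2-fold and 69% of 100 changed 1.5-fold were recovered, with 13 false calls. The simulated noise was independent, all other genes were unchanged and the array range was not made to differ between groups. These rates therefore do not carry over to the real 24 h comparison, where 50.7% of all genes were called. The number of arrays limits the precision. Whether the replicate numbers in the labels pair the samples is not settled. Residuals of same-numbered arrays correlated at -0.24 to 0.06. Those of differently numbered arrays at 2 h correlated at -0.57 to 0.63, a spread that could hide a pairing.

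The 10 genes, the pathway list and the marker lists were chosen with earlier results of these data known. All 10 genes were tested in each comparison, but the text does not give every value. Also named are up to 4 called pathway genes in each direction by size, the defining markers, and the 5 genes most like the mean of the 10. Alternatives were a second quantile normalization, centring on array medians, the interquartile range as a covariate, a replicate block, the compared groups alone, a filter on dim genes, a 1.5-fold minimum, averaging a gene's features, eBayes with trend and robust settings, and leaving out each array.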

Additional observations from a re-analysis of the deposited data

Results flagged for a closer look

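Each result here is a test of whether the change with time differed between Cebpa-deleted and control cells, in log2 units, and each was lower in the Cebpa-deleted cells. For the change from 2 to 24 h the differences were -1.15 for Plin2, -1.12 for Lpin1, -0.93 for Fabp5, -0.80 for Pnpla2 and -0.50 for Cd36. For the change from 0 to 24 h they were -1.54 for Fabp5, -1.27 for Plin2, -1.07 for Gpam, -1.02 for Lpin1, -0.82 for Pnpla2 and -0.46 for Cd36. Both sets use the same 24 h arrays. None of these was called in limma with the interquartile range of the arrays in the model (unadjusted p below 0.05 for Lpin1 from 2 to 24 h and for Lpin1 and Plin2 from 0 to 24 h), and the part of the array range in them was not tested.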

How the results depend on the processing

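Of the values of single genes under the alternatives, 1335 kept their direction and side of the threshold, 185 lost and 23 gained a call, and 38 reversed. The cause was not tested for any of these changes.

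With the array interquartile range in the limma model, 2 of the 10 genes were called for the genotype difference at 2 h. There 5.01% of all genes were called, beside 1.4% without that range. At 24 h the count was 0 of the 10 and 0.0201% of all genes. In Cebpa-deleted cells it was 0 from 2 to 24 h (0.577% of all genes) and 0 from 0 to 24 h (0.196%). For the difference between genotypes in change it was 0 from 2 to 24 h (0 of all genes) and 0 from 0 to 24 h (0.00502%). From 0 to 2 h it was 1 in control cells (4.71%) and 1 in Cebpa-deleted cells (5.99%). In control cells 5 were called from 2 to 24 h (2785 of all genes) and 4 from 0 to 24 h (16.9%). Reversed values under this covariate were Agpat2 at 24 h (0.35), Fabp5 from 2 to 24 h in control cells (-0.16), and Lpin1 (0.16), Dgat1 (-0.072), Pnpla2 (0.0078) and Fabp5 (0.46) over that interval in Cebpa-deleted cells. So were the differences in that change for Gpam (0.56), Agpat2 (0.62) and Fabp5 (0.63). From 0 to 2 h it turned Gpam (0.32), Agpat2 (1.09), Pnpla2 (0.56), Fabp5 (0.92) and Cebpa (0.31) in control cells and Agpat2 (0.72) and Pnpla2 (0.37) in Cebpa-deleted cells. From 0 to 24 h it turned Agpat2 (0.36) and Fabp5 (0.75) in control cells, Agpat2 (0.61), Lpin1 (0.078), Pnpla2 (0.38) and Fabp5 (0.41) in Cebpa-deleted cells, and the difference for Agpat2 (0.26). Outside the counted results, it turned Lpin2 (0.11) and Pnpla2 (0.62, limma adjusted p = 0.0202) from 0 to 24 h in control cells. Their deposited values were -0.03 and -0.0066.

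The second quantile normalization left 2 genes for the difference in change from 2 to 24 h, where 2595 of the 19938 genes were called. It turned that difference for Lpin2 (0.033) and Dgat1 (0.30). In control cells it turned Agpat2 (0.045), Pnpla2 (0.19) and Cebpa (0.094) from 0 to 2 h. In Cebpa-deleted cells it turned Pnpla2 (0.12) from 0 to 2 h and Lpin2 (0.53) from 0 to 24 h. It moved the share called at 24 h from 50.7% to 33.6% of all genes. A 1.5-fold minimum left 2 genes for the change from 2 to 24 h in Cebpa-deleted cells, where 7.37% of all genes were called. It left 3 for that from 0 to 24 h in control cells, where 24.6% of all genes were called. Fitting the compared groups alone left 0 at 2 h, where 0.00502% of all genes were called. In that fit 3 of the 10 were below 0.05 unadjusted, and the share of all genes below it was not counted.

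The replicate block, which the labels' shared numbers allow but the data do not settle, left 0 genes at 2 h, where 0.311% of all genes were called. It left 9 at 24 h, where 39.7% of all genes were called. At 2 h Gpam had limma adjusted p = 0.151, and 3 of the 10 were below 0.05 unadjusted, with the share of all genes not counted. The block turned Dgat1 from 2 to 24 h in Cebpa-deleted cells (-0.0022). Keeping Cebpa-deleted replicate 4 alone at 24 h, an alternative chosen after seeing the data, gave a median of the 10 genes of -0.57 at 24 h. The median was -0.10 for the change from 2 to 24 h in Cebpa-deleted cells, where Plin2 turned to 0.019. For the differences in change it was -0.39 from 2 to 24 h and -0.49 from 0 to 24 h. That lone array has no spread of its own, so only sizes are given.

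Leaving out 1 array gave 0 to 2 genes at 2 h, 9 in every fit at 24 h, 4 to 7 for the difference in change from 2 to 24 h and 2 to 8 for that from 0 to 24 h. The shares of all genes called in these fits are not given here, so these counts have no background beside them. Leaving out 1 array moved Cd36 from 2 to 24 h between -0.074 and 0.021 in control cells, Dgat1 between -0.027 and 0.11 in Cebpa-deleted cells and its difference between -0.19 and 0.014.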
